A study of Neurospora crassa with 42 samples.

Results

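Transcript levels are described here for 4 transcription factor genes of plant cell wall use in the filamentous fungus Neurospora crassa, out of 9758 genes in the deposited data. The genes, taken by identifier, are xlr-1 (NCU06971), vib-1 (NCU03725), ara-1 (NCU05414) and pdr-1 (NCU09033). The rule uses no measured value, though the genes were picked with earlier results of these data known. All 4 passed the filter on low values in every fit.

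A fungus that lives on plant debris has to sense which polymer is present and make the enzymes for it. In N. crassa, XLR-1 is the zinc cluster activator of genes for xylan and D-xylose use, ARA-1 that of genes for L-arabinose use, and PDR-1 that of genes for pectin use. VIB-1 has a DNA-binding domain of the Ndt80 type, is needed for normal cellulase production and is also known for its part in heterokaryon incompatibility, the cell death that follows fusion of unlike strains. They work beside CLR-1 and CLR-2, which activate the cellulase genes, CLR-3, which holds CLR-1 inactive when no cellulose is sensed, and CRE-1, the carbon catabolite repressor.

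Messenger RNA was sequenced in 42 libraries, 3 biological replicates in each of 14 groups. Mycelium was grown for 16 h on 2% sucrose, washed, and moved to 2% Avicel, a microcrystalline cellulose, or to the same medium without a carbon source (starvation). After 4 h there were 6 groups: 2 activator deletions (Δclr-1, Δclr-2) on Avicel, 2 other strains (Pccg1-clr-2, Δclr-3) that were starved, and the wild type FGSC 2489 under either condition. The strain Pccg1-clr-2 has its own clr-2 deleted and carries clr-2 under the promoter of ccg-1, a gene that is active without cellulose. After 10 h there were 8 groups, all on starvation medium: 3 double deletions (Δcre-1Δclr-3, Δos-1Δclr-3, Δos-2Δclr-3), 4 single deletions (Δclr-3, Δcre-1, Δos-1, Δos-2) and wild type. OS-1 is the osmosensing histidine kinase and OS-2 the MAP kinase of the same pathway. The series title names a kinase cascade that joins the sensing of osmolarity and of carbon. How many independent isolates stand behind a strain is not given in the sources used here.

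Levels are in FPKM, which counts fragments relative to transcript length and library total. The depth implied by the width of the authors' FPKM bounds ran from 5.09 to 48.8 M (mega) fragments per library at 4 h and from 18.1 to 27.5 M at 10 h. At 10 h every library had a mean correlation with its own group of at least 0.991. At 4 h the lowest was 0.896, in wild type Avicel replicate 1, which also had the lowest implied depth of the 42. For each of the 6 deleted genes, every library labelled as lacking it lay below every library labelled as having it. For clr-3, for example, the highest library without the gene had 1.42 FPKM, against 21.5 FPKM in the lowest library with it.

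All 4 genes lie apart from each other on build NC12, and no annotated gene overlaps any of them. xlr-1 spans IV:4706112-4709560, vib-1 spans V:2215819-2219221, ara-1 spans II:1559014-1561693 and pdr-1 spans VII:400424-404459. The nearest neighbour of pdr-1, the gene NCU09034, lies 883 bp away. Every library gave a positive value for every one of the 4 genes. The upper bound of the estimate lay 1.67 to 4.21% above the value for xlr-1, 3.71 to 6.46% for vib-1, 2.12 to 9.05% for ara-1 and 2.72 to 13.8% for pdr-1. Among the genes of a library, xlr-1 ranked between percentiles 77.7 and 95.4, vib-1 between 56.3 and 95.5, ara-1 between 60.7 and 92.8, and pdr-1 between 50.7 and 67.1.

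The 4 genes differed in how far their level ranged over the 14 groups. The group means of vib-1 spanned 9.43-fold, from 165 ± 38.4 FPKM in wild type on Avicel down to 17.5 ± 1.24 FPKM in Δos-2 (SD, n = 3 each). Those of ara-1 spanned 6.24-fold, from 101 ± 29.5 FPKM in Pccg1-clr-2 down to 16.2 ± 2.01 FPKM in Δcre-1Δclr-3. Those of xlr-1 spanned 3.85-fold, from 159 ± 37.1 FPKM in wild type on Avicel down to 41.4 ± 0.606 FPKM in Δos-2. Δcre-1Δclr-3 also had 41.4 ± 5.61 FPKM of xlr-1. The gene pdr-1 spanned 1.80-fold, from 23.7 ± 0.393 FPKM in Δclr-1 on Avicel down to 13.2 ± 0.584 FPKM in Δcre-1Δclr-3. On the log2 scale these ranges are 3.14, 2.53, 1.90 and 0.80, beside a median of 1.53 over 8245 genes. Thus 89.3% of genes had a smaller range than vib-1 and 5.48% a smaller one than pdr-1. For all 4 genes the highest group was at 4 h and the lowest at 10 h. These ranges therefore include time, which cannot be told apart from batch.

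**Figure D1:**
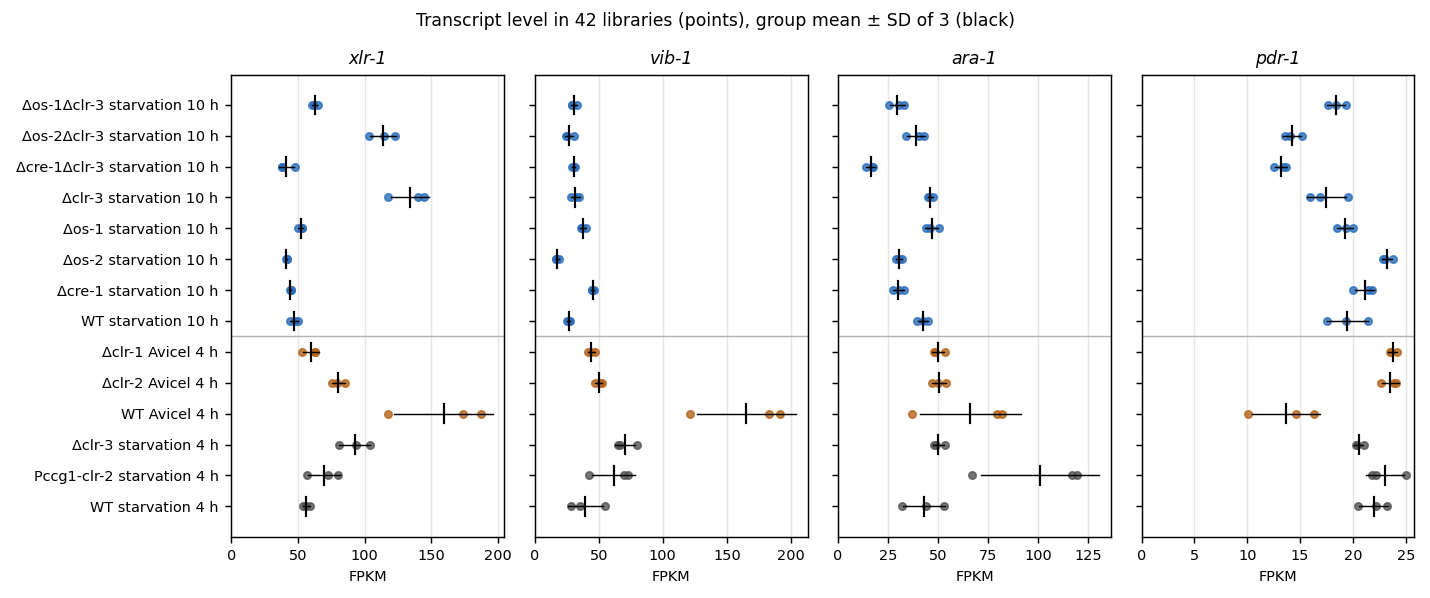
FPKM of xlr-1, vib-1, ara-1 and pdr-1 (horizontal axes) in each of the 42 libraries, by group (blue, starvation 10 h; brown, Avicel 4 h; grey, starvation 4 h), with the group mean and SD of 3 in black. Wild type on Avicel has the highest mean for xlr-1 (159 FPKM) and vib-1 (165 FPKM), and the group means of pdr-1 lie between 13.2 and 23.7 FPKM.

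In order of level, xlr-1 had 159 ± 37.1 FPKM in wild type on Avicel, 134 ± 14.2 FPKM in Δclr-3 at 10 h, 113 ± 9.81 FPKM in Δos-2Δclr-3, and 92.5 ± 11.7 FPKM in Δclr-3 at 4 h. Next came Δclr-2 on Avicel with 80.0 ± 4.87 FPKM, Pccg1-clr-2 with 69.7 ± 12.1 FPKM and Δos-1Δclr-3 with 62.4 ± 2.02 FPKM. The other 7 groups had means between 59.6 and 41.4 FPKM. Of the 13 pairs of neighbours in this order, 11 had overlapping libraries.

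For vib-1, wild type on Avicel stood apart from the group next in order, Δclr-3 at 4 h with 70.5 ± 7.87 FPKM. Pccg1-clr-2 (61.5 ± 16.7 FPKM) and the remaining 4 h groups (50.0 to 39.6 FPKM) shared the middle of the order with Δcre-1 at 45.3 ± 1.06 FPKM and Δos-1 at 37.7 ± 2.2 FPKM. The remaining 10 h groups had means between 31.9 and 17.5 FPKM. Overlap was seen in 9 of 13 neighbouring pairs.

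For ara-1, Pccg1-clr-2 was followed by wild type on Avicel (66.1 ± 25.3 FPKM), and then 8 groups lay between 50.2 and 38.9 FPKM. Below them came Δos-2 (30.4 ± 1.71 FPKM), Δcre-1 (30.1 ± 2.79 FPKM) and Δos-1Δclr-3 (29.5 ± 3.68 FPKM), with Δcre-1Δclr-3 apart at the bottom. For pdr-1, the 3 lowest groups were Δos-2Δclr-3 (14.2 ± 0.831 FPKM), wild type on Avicel (13.7 ± 3.22 FPKM) and Δcre-1Δclr-3. Libraries of neighbours overlapped in 11 of 13 pairs for ara-1 and 12 of 13 for pdr-1. These orders are descriptions; groups of 1 time are compared by the fits that follow.

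Differences were tested with limma on log2(FPKM + 1) across all genes, in 25 comparisons. A log2 fold change is on that scale, with its standard error after the ± sign, and the adjusted p is limma's with Benjamini-Hochberg adjustment over all genes of the comparison. A gene is called where the adjusted p is under 0.05 and the absolute log2 fold change at least 1, and only called differences are described as a rise or a fall. Out of 25 comparisons, xlr-1 was called in 8, vib-1 in 5, ara-1 in 2 and pdr-1 in 0. The share of all genes called ran from 0.0968% to 19.5%, depending on the comparison. Calls per gene were not counted over all genes, so these counts are a description and no ranking of the regulators. The RNA came from whole mycelium, so fewer cells of a kind and less RNA per cell cannot be told apart. Comparisons that share a group of libraries are not independent of each other. Leaving aside the fold limit, the adjusted p alone was passed by 26.8 to 85.0% of all genes at 10 h, so a small adjusted p was common there.

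On Avicel, wild type had more xlr-1 and vib-1 transcript than starved wild type. The libraries had 117, 173 and 187 FPKM of xlr-1 on Avicel, against 55.7, 53.8 and 58.9 FPKM on starvation medium. For vib-1 they had 121, 183 and 191 FPKM on Avicel, against 28.4, 54.9 and 35.6 FPKM on starvation medium. Every Avicel library was above every starved one for both genes. The log2 fold change was 1.46 ± 0.17 for xlr-1 (adjusted p = 2.5e-05) and 2.06 ± 0.24 for vib-1 (adjusted p = 1.89e-05). Of 8268 genes, 10.5% were called in this comparison, and their median log2 fold change was below 0, at -0.39.

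The other 2 regulators were not called. ara-1 had 36.9, 82.0 and 79.2 FPKM on Avicel, against 52.9, 31.8 and 43.8 FPKM on starvation medium, and the groups overlapped. Its log2 fold change was 0.56 ± 0.27, with a 95% interval from -0.02 to 1.14 (limma adjusted p = 0.109). After median-ratio rescaling of the libraries it was 0.99 (limma adjusted p = 0.00482), just under the fold limit. pdr-1 was lower in every Avicel library, with 10.1, 16.3 and 14.6 FPKM on Avicel, against 23.2, 20.5 and 22.2 FPKM on starvation medium. Its log2 fold change of -0.67 ± 0.14 (limma adjusted p = 0.00236) missed the fold limit and lay nearer to the median of all genes. After the same rescaling it was -0.26 (limma adjusted p = 0.0497). Wild type Avicel replicate 1 was the lowest of its group for all 4 genes. Without it, the log2 fold change was 1.67 for xlr-1, 2.26 for vib-1, 0.93 for ara-1 and -0.48 for pdr-1, with the same calls. The authors' whole-series table scales this replicate by a log2 factor of 0.47, against -0.13 and -0.08 for replicates 2 and 3. The part of its low depth or of this offset in these values was not tested.

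Without either CLR activator, mycelium on Avicel had less vib-1 transcript than wild type on Avicel. Δclr-1 libraries had 47.2, 44.1 and 41.8 FPKM of vib-1 and Δclr-2 libraries 46.7, 52.2 and 51.1 FPKM, all below the wild type Avicel libraries. vib-1 fell by 1.85 ± 0.24 on the log2 scale in Δclr-1 (adjusted p = 8.43e-05) and by 1.68 ± 0.24 in Δclr-2 (adjusted p = 0.000267). All genes together gave 8.32% called in Δclr-1 and 6.45% in Δclr-2.

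xlr-1 also fell in Δclr-1, to 52.7, 63.0 and 63.1 FPKM, a log2 fold change of -1.38 ± 0.17 (adjusted p = 6.55e-05). In Δclr-2 it had 79.2, 75.6 and 85.3 FPKM, again below every wild type Avicel library. There the log2 fold change was -0.96 ± 0.17 (limma adjusted p = 0.00188), just short of the fold limit. It passed that limit after median-ratio rescaling of the libraries (-1.36), with the scaling of the authors' whole-series table (-1.35), without wild type Avicel replicate 1 (-1.16) and without Δclr-2 replicate 3 (-1.0). Both comparisons use the same 3 wild type Avicel libraries.

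Between the activator mutants themselves, Δclr-1 relative to Δclr-2, 0 of the 4 genes were called, beside 8 of 8266 genes overall (0.0968%). The xlr-1 level was lower in Δclr-1 than in Δclr-2 in every library, with a log2 fold change of -0.42 ± 0.17 and a 95% interval from -0.79 to -0.05 (limma adjusted p = 1). For vib-1 the difference was -0.17 ± 0.24, with an interval from -0.68 to 0.34. Intervals for ara-1 and pdr-1 ran from -0.59 to 0.57 and from -0.28 to 0.31.

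Compared with starved wild type, the activator mutants on Avicel showed no call for any of the 4 genes. In Δclr-1 1.98% of all genes were called and in Δclr-2 1.77%. The difference in xlr-1 was 0.08 ± 0.17 in Δclr-1 and 0.50 ± 0.17 in Δclr-2 on the log2 scale, with intervals from -0.29 to 0.45 and from 0.13 to 0.87. For vib-1 it was 0.21 ± 0.24 in Δclr-1 and 0.38 ± 0.24 in Δclr-2. Strain and medium both differ in this pair of comparisons.

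pdr-1 took the opposite direction in the activator mutants. It had 23.6, 24.2 and 23.5 FPKM in Δclr-1 and 23.9, 24.1 and 22.6 FPKM in Δclr-2, all above wild type on Avicel. The log2 fold changes of 0.78 ± 0.14 in Δclr-1 (limma adjusted p = 0.00135) and 0.77 ± 0.14 in Δclr-2 (limma adjusted p = 0.00188) were below the fold limit. All genes had medians of 0.33 and 0.37 there, and after rescaling the values for pdr-1 were 0.44 and 0.39. For ara-1, Δclr-1 had 53.1, 48.1 and 48.2 FPKM and Δclr-2 had 53.9, 50.1 and 46.8 FPKM. These lie between the low replicate and the other two of wild type on Avicel.

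**Figure D2:**
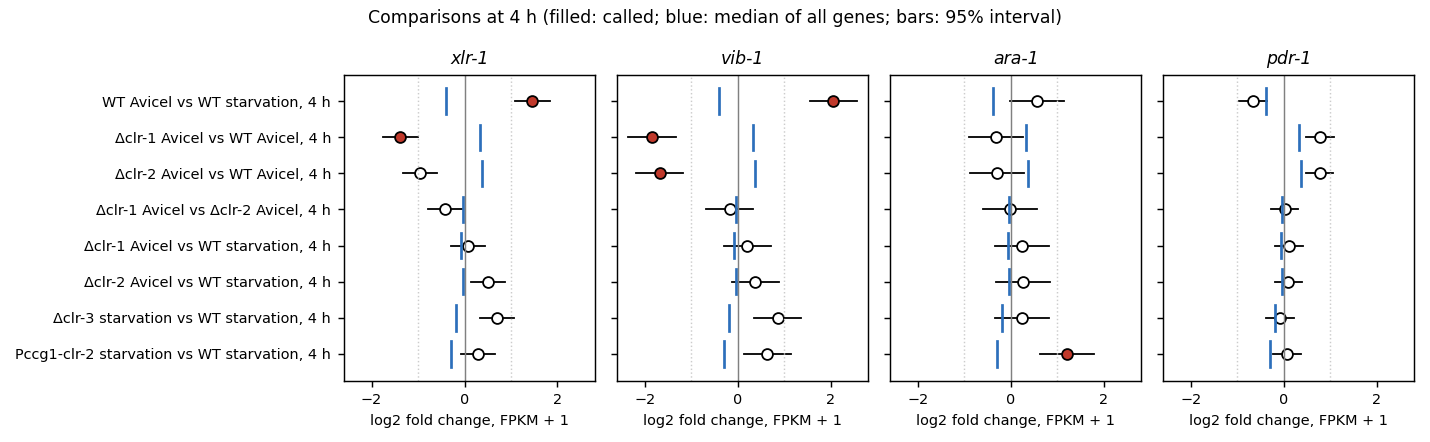
Log2 fold change of FPKM + 1 (horizontal axes) of the 4 genes in the 8 comparisons at 4 h, with 95% intervals; filled points passed the adjusted p and the fold limit, and blue ticks mark the median of all genes. Filled points are xlr-1 at 1.46 and -1.38, vib-1 at 2.06, -1.85 and -1.68, and ara-1 at 1.2.

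In starved Pccg1-clr-2 at 4 h, ara-1 rose and the other 3 regulators were not called. Its level was 66.9, 117 and 119 FPKM in Pccg1-clr-2, against 52.9, 31.8 and 43.8 FPKM in wild type. The groups did not overlap, and the log2 fold change was 1.2 ± 0.27 (adjusted p = 0.00412). With 1 library left out at a time it ran from 1.01 to 1.47. In this comparison 10.5% of all genes were called, with a median log2 fold change of -0.29. The libraries with 66.9, 31.8 and 43.8 FPKM of ara-1 had the highest implied depth of the series (47.7, 47.9 and 48.8 M). The others of these groups had 14.9 to 19.8 M. Any part of depth in the ara-1 difference was not tested.

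The Pccg1-clr-2 libraries had 56.5, 80.1 and 72.5 FPKM of xlr-1 and 42.3, 72.6 and 69.8 FPKM of vib-1, and both genes overlapped with starved wild type. Their log2 fold changes were 0.29 ± 0.17 and 0.64 ± 0.24 (limma adjusted p = 0.215 and 0.0541). After rescaling they were 0.59 and 0.93 (limma adjusted p = 0.00378 and 0.00617), both under the fold limit. Pccg1-clr-2 replicate 1 was the lowest of its group for xlr-1, vib-1 and ara-1. Leaving out from every 4 h group the library least like its group, a setting chosen after seeing the data, gave 1.14 for vib-1, past both limits. pdr-1 had 25.1, 22.2 and 21.8 FPKM, a log2 fold change of 0.06 ± 0.14.

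In Δclr-3 starved for 4 h, 10.6% of all genes and 0 of the 4 regulators were called. xlr-1 had 80.4, 104 and 93.2 FPKM in Δclr-3, all above wild type, with a log2 fold change of 0.70 ± 0.17 (limma adjusted p = 0.00765). vib-1 had 65.3, 66.6 and 79.5 FPKM in Δclr-3, against 28.4, 54.9 and 35.6 FPKM in wild type. Its log2 fold change of 0.86 ± 0.24 (limma adjusted p = 0.0143) missed the fold limit. It passed with rescaling (1.07), with the scaling of the authors' whole-series table (1.02), without wild type starvation replicate 2 (1.12) and without the least alike library of every group (1.17). The values for ara-1 and pdr-1 were 0.25 ± 0.27 and -0.09 ± 0.14.

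After 10 h of starvation, the level of xlr-1 in Δclr-3 was well above wild type. The libraries had 118, 140.0 and 144 FPKM in Δclr-3, against 43.8, 47.5 and 49.7 FPKM in wild type. The log2 fold change was 1.49 ± 0.08 (adjusted p = 5.29e-12), in a comparison where 5.55% of 8013 genes were called. None of the other 3 regulators was called. vib-1 differed by 0.25 ± 0.08, ara-1 by 0.12 ± 0.10 and pdr-1 by -0.15 ± 0.07 on the log2 scale, and the median of all genes was -0.29. After rescaling these values were 0.55, 0.43 and 0.15, so the sign for pdr-1 turned.

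The single deletions of os-1, os-2 and cre-1 left all 4 genes short of a call against wild type, and 2.67%, 10.7% and 5.97% of all genes were called in them. xlr-1 had 53.2, 53.0 and 50.1 FPKM in Δos-1, 41.9, 40.7 and 41.4 FPKM in Δos-2 and 44.5, 44.1 and 44.7 FPKM in Δcre-1. Its log2 fold changes were 0.15 ± 0.08, -0.18 ± 0.08 and -0.08 ± 0.08. The last 2 turned positive (0.06 and 0.09) after rescaling.

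vib-1 differed more among these strains. It had 36.8, 40.2 and 36.0 FPKM in Δos-1, 18.9, 16.6 and 17.0 FPKM in Δos-2 and 44.5, 46.5 and 44.9 FPKM in Δcre-1, against 27.5, 27.2 and 25.1 FPKM in wild type. No library of the deletions overlapped with wild type. The log2 fold changes were 0.49 ± 0.08 in Δos-1 (limma adjusted p = 6.59e-05), -0.58 ± 0.08 in Δos-2 (limma adjusted p = 2.06e-06) and 0.75 ± 0.08 in Δcre-1 (limma adjusted p = 1.02e-07), each below the fold limit.

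Compared directly, Δos-1 had more vib-1 than Δos-2, and the difference passed both limits. The log2 fold change was 1.06 ± 0.08 (adjusted p = 4.55e-10), and 9.07% of all genes were called in this comparison. It was 0.94 after rescaling and 0.92 with the scaling of the whole-series table, in both cases under the fold limit. xlr-1, ara-1 and pdr-1 differed between Δos-1 and Δos-2 by 0.33 ± 0.08, 0.60 ± 0.10 and -0.26 ± 0.07, none of them called.

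ara-1 had 32.1, 30.3 and 28.7 FPKM in Δos-2 and 32.8, 30.2 and 27.2 FPKM in Δcre-1, all below wild type with 42.4, 44.8 and 39.6 FPKM. The log2 fold changes were -0.46 ± 0.10 (limma adjusted p = 0.000278) and -0.48 ± 0.10 (limma adjusted p = 0.000251). In Δos-1 ara-1 overlapped with wild type, at 0.14 ± 0.10. For pdr-1 the 3 values were -0.01 ± 0.07 in Δos-1, 0.25 ± 0.07 in Δos-2 and 0.12 ± 0.07 in Δcre-1.

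**Figure D3:**
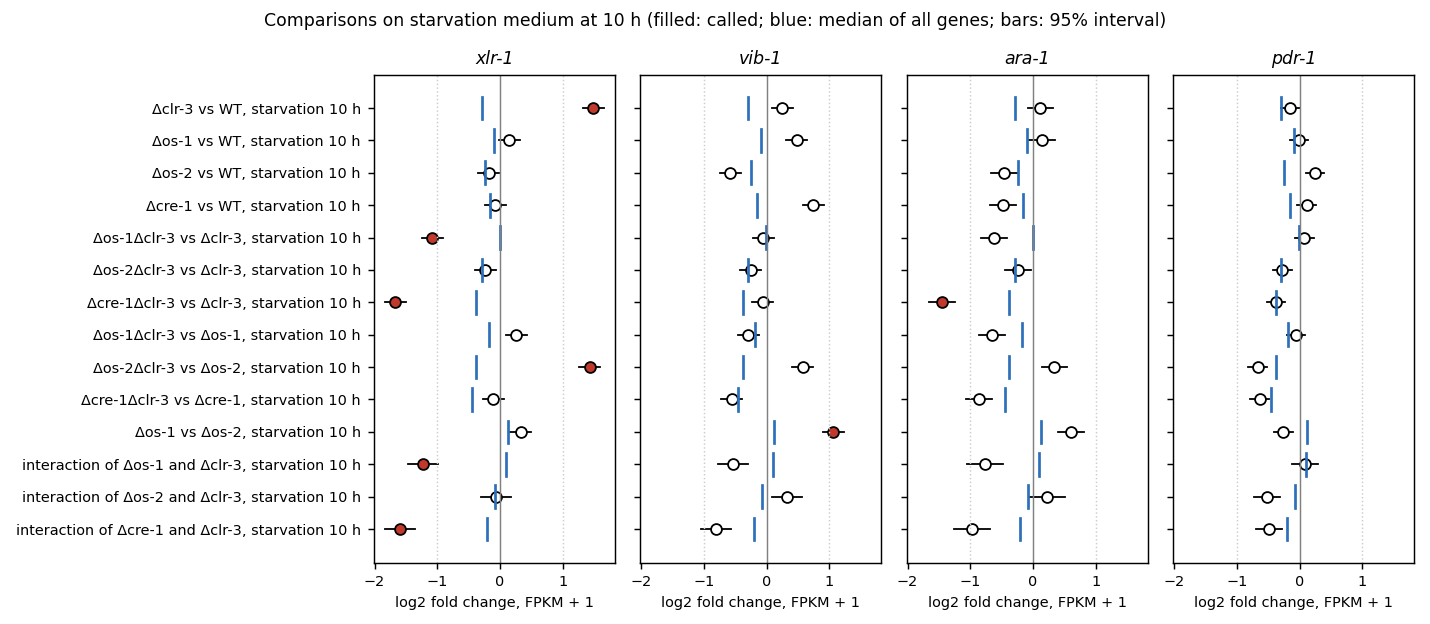
Log2 fold change of FPKM + 1 (horizontal axes) of the 4 genes in the 14 comparisons at 10 h, drawn as for 4 h. Filled points of xlr-1 lie at 1.49, -1.08, -1.67, 1.43, -1.23 and -1.60; vib-1 has a filled point at 1.06, ara-1 has one at -1.46, and pdr-1 has none.

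Without clr-3, the level of xlr-1 differed with the second deletion. It had 64.7, 61.8 and 60.8 FPKM in Δos-1Δclr-3, 115, 122 and 103 FPKM in Δos-2Δclr-3 and 47.8, 37.9 and 38.4 FPKM in Δcre-1Δclr-3, against 118, 140.0 and 144 FPKM in Δclr-3. Relative to Δclr-3, xlr-1 fell by 1.08 ± 0.08 in Δos-1Δclr-3 (adjusted p = 8.22e-10) and by 1.67 ± 0.08 in Δcre-1Δclr-3 (adjusted p = 4.47e-13) on the log2 scale. In Δos-2Δclr-3 the libraries overlapped with Δclr-3, and the log2 fold change was -0.24 ± 0.08 (limma adjusted p = 0.0128), or 0.08 after rescaling. The shares of all genes called in these comparisons were 5.64% for Δos-1Δclr-3, 8.46% for Δos-2Δclr-3 and 14.6% for Δcre-1Δclr-3.

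Seen from the other side, xlr-1 rose in Δos-2Δclr-3 relative to Δos-2, with a log2 fold change of 1.43 ± 0.08 (adjusted p = 5.05e-12). In the Δos-1 background the difference was 0.26 ± 0.08 (limma adjusted p = 0.0101), below the fold limit. In the Δcre-1 background it was -0.11 ± 0.08, with a 95% interval from -0.28 to 0.06, and 0.43 after rescaling. All genes called made up 7.63% in the Δos-2, 3.01% in the Δos-1 and 14.2% in the Δcre-1 background.

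Whether the second deletion acted differently in Δclr-3 and in wild type was tested as an interaction (effect in Δclr-3 minus effect in wild type). Each interaction contrasts 12 libraries, within the fit of all 24 libraries at 10 h. For xlr-1 it was -1.23 ± 0.11 with Δos-1 (adjusted p = 1.18e-07) and -1.60 ± 0.11 with Δcre-1 (adjusted p = 2.3e-09). With Δos-2 it was -0.06 ± 0.11, with a 95% interval from -0.30 to 0.18. The background was 3.11% of genes called with Δos-1, 6.86% with Δcre-1 and 4.62% with Δos-2. Every fit that left out 1 library kept both calls, at -1.32 to -1.18 with Δos-1 and -1.70 to -1.54 with Δcre-1.

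**Figure D4:**
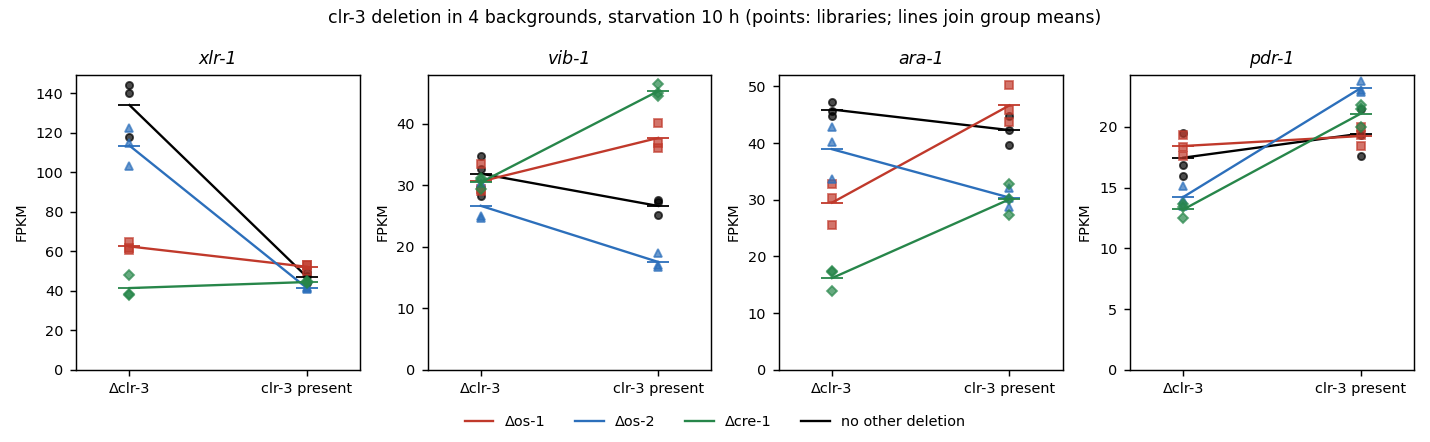
FPKM at 10 h of starvation (vertical axes) of the 4 genes without clr-3 and with it, in strains with no other deletion (black) or with os-1 (red), os-2 (blue) or cre-1 (green) deleted; points are libraries and lines join group means. The xlr-1 lines slope steeply in black (134 against 47.0 FPKM) and blue (113 against 41.4 FPKM) and lie flatter in red (62.4 against 52.1 FPKM) and green (41.4 against 44.4 FPKM).

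The same comparisons gave 1 call for ara-1. It had 17.5, 17.2 and 13.9 FPKM in Δcre-1Δclr-3, against 44.9, 45.6 and 47.3 FPKM in Δclr-3, and fell by 1.46 ± 0.10 on the log2 scale (adjusted p = 3.96e-11). The Δcre-1Δclr-3 libraries were also below those of Δcre-1, by -0.86 ± 0.10 (limma adjusted p = 7.98e-08) under the main scaling and by -0.34 after rescaling. The interaction with Δcre-1 was -0.98 ± 0.14 (limma adjusted p = 7.59e-06), just under the fold limit. It passed that limit without replicate 2 of wild type (-1.02), replicate 3 of Δcre-1 (-1.04), or replicate 1 or 2 of Δcre-1Δclr-3 (-1.03 and -1.02), and was -0.77 after rescaling. In Δos-1Δclr-3, ara-1 had 32.7, 25.5 and 30.3 FPKM, which is -0.63 ± 0.10 against Δclr-3 and -0.65 ± 0.10 against Δos-1. In Δos-2Δclr-3 it had 40.2, 42.8 and 33.7 FPKM.

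vib-1 levels were close together in the 4 strains without clr-3. They were 29.4, 33.4 and 29.0 FPKM in Δos-1Δclr-3, 25.0, 30.3 and 24.6 FPKM in Δos-2Δclr-3 and 31.1, 30.8 and 29.4 FPKM in Δcre-1Δclr-3, against 28.2, 34.8 and 32.6 FPKM in Δclr-3. All 3 double deletions overlapped with Δclr-3, and the log2 fold changes were -0.05 ± 0.08, -0.25 ± 0.08 and -0.06 ± 0.08. After rescaling they were -0.06, 0.06 and 0.33. Interactions for vib-1 were -0.54 ± 0.11 with Δos-1, 0.33 ± 0.11 with Δos-2 and -0.80 ± 0.11 with Δcre-1, none past the fold limit.

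The lowest pdr-1 levels at 10 h were those of Δos-2Δclr-3 and Δcre-1Δclr-3. It had 15.1, 13.5 and 14.0 FPKM in Δos-2Δclr-3 and 13.6, 13.4 and 12.5 FPKM in Δcre-1Δclr-3, against 16.0, 16.9 and 19.5 FPKM in Δclr-3. Against Δclr-3 the log2 fold changes were -0.274 ± 0.07 and -0.375 ± 0.07, close to the medians of all genes (-0.289 and -0.377). After rescaling these differences from Δclr-3 were 0.03 and 0.001. Relative to Δos-2 and Δcre-1, the log2 fold changes were -0.67 ± 0.07 (limma adjusted p = 4.26e-08) and -0.64 ± 0.07 (limma adjusted p = 4.95e-08). All genes had medians of -0.38 and -0.45 there, and after rescaling pdr-1 gave -0.29 and -0.12. Over the 25 comparisons its 95% intervals stayed between -0.97 and 1.08.

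Time was compared in starved wild type and Δclr-3. Whether the times were prepared apart is not in the labels, so time and batch cannot be told apart. vib-1 fell in Δclr-3 to 28.2, 34.8 and 32.6 FPKM at 10 h, against 65.3, 66.6 and 79.5 FPKM at 4 h, a log2 fold change of -1.12 ± 0.19 (adjusted p = 0.000436). With the scaling of the whole-series table it was -0.97, under the fold limit. In wild type vib-1 differed by -0.51 ± 0.19 (limma adjusted p = 0.0413), and the change was -0.25 without wild type starvation replicate 2 at 4 h. The share of all genes called was 19.5% in Δclr-3 and 18.2% in wild type.

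At 10 h relative to 4 h, xlr-1 had a log2 fold change of 0.53 ± 0.11 in Δclr-3 (limma adjusted p = 0.00142) and of -0.25 ± 0.11 in wild type. The Δclr-3 effect at 10 h minus that at 4 h was 0.78 ± 0.15 for xlr-1 (limma adjusted p = 0.00482) and -0.61 ± 0.27 for vib-1 (limma adjusted p = 0.115). Both missed the call, beside 6.42% of all genes called. For ara-1 and pdr-1 that difference was -0.13 ± 0.21 and -0.06 ± 0.13.

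Genes of the pathways around these regulators were counted from lists. Of 13 xylan and D-xylose genes, 10 were called higher and 0 lower in wild type on Avicel relative to starvation, where xlr-1 rose too. Of all genes, 3.05% were called higher there. Their median log2 fold change was 6.43, beside -0.39 for all genes. The endoxylanase genes gh10-1 (10.50 ± 0.33) and gh11-2 (8.99 ± 0.30) and the gene NCU04870 (9.02 ± 0.27) had the largest changes. In Δclr-1 on Avicel 5 fell and 1 rose relative to wild type on Avicel, led by gh10-1 (-9.09 ± 0.33) and the endoxylanase gene gh11-1 (-5.95 ± 0.39). In Δclr-2 it was again 5 and 1. Among all genes, 2.48% were called lower and 5.84% higher in Δclr-1, and 2.21% lower and 4.23% higher in Δclr-2.

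Some of the 13 xylan genes were also called in groups where xlr-1 was not. Relative to starved wild type, 9 were called higher in Δclr-1 on Avicel and 8 in Δclr-2 on Avicel, with 0 lower in both, beside 1.32% and 1.37% of all genes called higher. There the endoxylanase gene gh10-2 (7.22 ± 0.58 and 7.0 ± 0.58) and the xylose reductase gene xr (6.97 ± 0.57 and 6.75 ± 0.57) led. In starved Pccg1-clr-2, 7 were higher and 0 lower, with gh10-1 at 12.44 ± 0.33 and a median of 1.57. In Δclr-3 at 4 h, 8 were higher and 0 lower, with a median of 2.01. All genes had 2.76% called higher and a median of -0.29 in Pccg1-clr-2, and 3.16% called higher and a median of -0.19 in Δclr-3.

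At 10 h the counts were 8 higher and 0 lower in Δclr-3 relative to wild type, beside 2.93% of all genes called higher, with a median of 2.19, and gh10-1 (8.0 ± 0.30), gh11-2 (7.28 ± 0.29) and NCU04870 (6.83 ± 0.27) in front. Relative to Δclr-3, 7 fell and 0 rose in Δos-1Δclr-3 (median -1.19), and 7 fell and 1 rose in Δcre-1Δclr-3 (median -1.07). Called lower among all genes were 2.53% in Δos-1Δclr-3 and 10.1% in Δcre-1Δclr-3, with medians of 0.00 and -0.38. In Δos-2Δclr-3, 1 fell and 1 rose (median 0.64), beside 5.74% and 2.72% of all genes. Both double deletions with 7 lower genes are the ones in which xlr-1 fell. The clr-2 level was lower there too, at 8.47 ± 0.620 FPKM in Δos-1Δclr-3 and 31.0 ± 5.10 FPKM in Δcre-1Δclr-3. In Δclr-3 it was 89.0 ± 18.2 FPKM. Any link of either regulator with the list genes was not tested. The largest fall in Δos-1Δclr-3 was that of gh10-1 (-7.28 ± 0.30) and in Δcre-1Δclr-3 that of cdt-2, a cellodextrin transporter gene (-3.12 ± 0.14). In the Δcre-1 background, where xlr-1 had -0.11, 5 of the 13 genes were called higher and 0 lower without clr-3, beside 3.07% of all genes called higher. In Δos-2 relative to wild type, where xlr-1 had -0.18, 3 were higher and 4 lower. All genes had 4.48% called higher and 6.26% lower there.

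**Figure D5:**
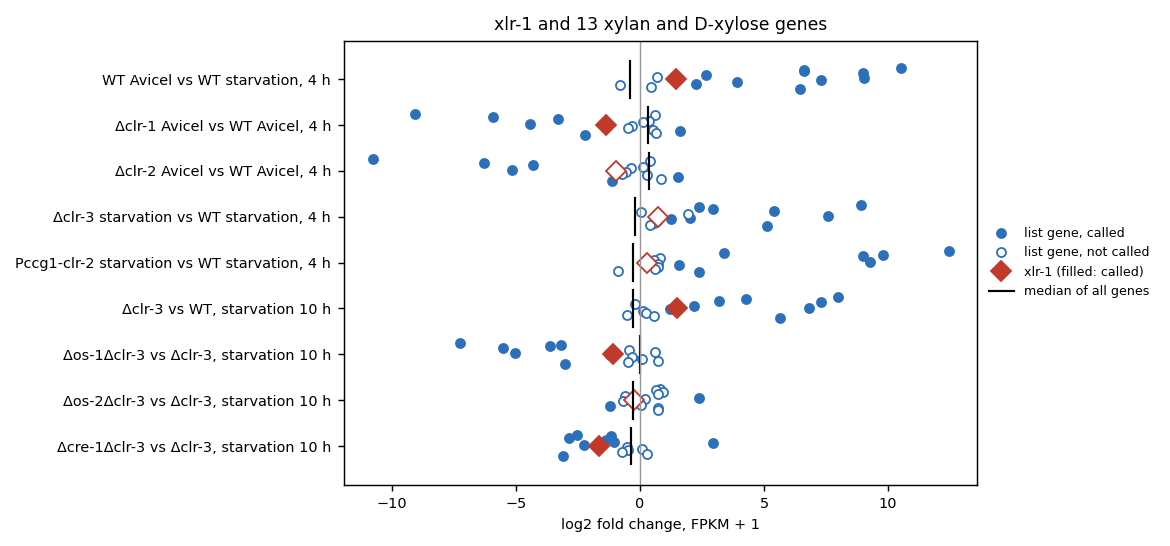
Log2 fold change of FPKM + 1 (horizontal axis) of xlr-1 (red diamonds) and the 13 xylan and D-xylose genes (blue circles) in 9 comparisons; filled symbols were called and black ticks mark the median of all genes. In Δos-1Δclr-3 and Δcre-1Δclr-3 against Δclr-3, xlr-1 (-1.08 and -1.67) and 7 list genes have filled symbols on the lower side, and in Δos-2Δclr-3 xlr-1 lies at -0.24 with 2 list genes filled.

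Of 8 L-arabinose and arabinan genes, 2 rose and 0 fell in Pccg1-clr-2, the group in which ara-1 rose, beside 2.76% of all genes called higher. They are NCU09775 (5.59 ± 0.62) and NCU00972 (4.99 ± 0.25), and the list's median was 0.53 beside -0.29 for all genes. In Δcre-1Δclr-3 relative to Δclr-3, where ara-1 fell, 2 fell and 0 rose: NCU00972 (-1.70 ± 0.16) and NCU09041 (-1.34 ± 0.12). There 10.1% of all genes were called lower. Other comparisons had more of the 8 called and no call of ara-1. In wild type on Avicel 5 rose and 0 fell, with xr, which is in the xylan list too, among them. Of all genes, 3.05% were called higher there. In Δclr-3 relative to wild type 3 rose and 0 fell at 4 h and again at 10 h, beside 3.16% and 2.93% of all genes called higher. In Δos-1Δclr-3 relative to Δclr-3, 3 fell and 0 rose, beside 2.53% of all genes called lower.

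Some of the 11 pectin and D-galacturonate genes were called in comparisons where pdr-1 was not. In wild type on Avicel 3 were higher and 2 lower than on starvation medium, led by NCU08176 (5.70 ± 0.29), NCU10045 (3.60 ± 0.26) and asd-1 (3.11 ± 0.33), beside 3.05% of all genes called higher and 7.47% lower. In Pccg1-clr-2, 5 were higher and 2 lower, beside 2.76% and 7.73% of all genes. Starved wild type had 5 lower and 0 higher at 10 h relative to 4 h, led by NCU07064 (-3.42 ± 0.18), with a list median of -0.85 beside 0.01 for all genes, of which 10.9% were called lower. NCU09034, which is on the list and lies beside pdr-1 on the chromosome, had group means between 15.4 ± 0.971 FPKM in Pccg1-clr-2 and 6.99 ± 0.816 FPKM in Δos-2Δclr-3.

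Of 5 heterokaryon incompatibility genes, 3 fell and 0 rose in Δos-2, the group with the lowest vib-1 level, relative to wild type, beside 6.26% of all genes called lower. They are pin-c (-1.37 ± 0.12), tol (-1.12 ± 0.09) and het-6 (-1.0 ± 0.11), and the list's median was -1.0 beside -0.24 for all genes. Their levels are low: pin-c had 0.237 ± 0.0634 FPKM in Δos-2, against 2.2 ± 0.152 FPKM in wild type, and tol had 0.882 ± 0.179 FPKM in Δos-2, against 3.08 ± 0.217 FPKM in wild type. vib-1 itself was not called in Δos-2 relative to wild type (-0.58 ± 0.08). In wild type on Avicel 0 of the 5 were called against starvation, where 10.5% of all genes were called, a share near which 0 of 5 lies. Against wild type on Avicel, 0 of the 5 were called in Δclr-1 or Δclr-2, where vib-1 fell. All genes gave 8.32% and 6.45% called. In Δclr-3 at 10 h relative to 4 h, where vib-1 fell, 1 rose and 0 fell, beside 7.79% of all genes called higher. In Δos-1 relative to Δos-2, where vib-1 was called higher, 1 was higher and 0 lower, beside 5.24% of all genes.

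Among 9 other regulators of plant cell wall use and carbon response, 4 rose and 0 fell in wild type on Avicel, clr-2 (5.94 ± 0.31) and clr-3 (4.05 ± 0.20) most, beside 3.05% of all genes called higher. In Δclr-1 on Avicel 3 of the 8 tested fell, with clr-2 at -6.16 ± 0.31, beside 2.48% of all genes called lower. In Δclr-3 at 10 h relative to wild type, clr-2 rose by 4.94 ± 0.14 and the gene rca-1 fell by 2.11 ± 0.14. The interaction for clr-2 was -2.92 ± 0.20 with Δos-1 and -2.89 ± 0.20 with Δcre-1, both called. With Δos-2 it was 0.82 ± 0.20 (limma adjusted p = 0.00317), below the fold limit, and clr-2 rose by 1.04 ± 0.14 in Δos-2Δclr-3 relative to Δclr-3, where xlr-1 had -0.24.

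Across the 14 group means, centred within each time, the genes most like each regulator were found by Pearson's r over 8244 genes. The groups of 1 time may share a batch, and the values are a description with no p. For xlr-1 they were NCU05863 (r = 0.923), NCU11342 (r = 0.914) and gh1-1 (r = 0.905), a glycoside hydrolase family gene. gh1-1 was highest in wild type on Avicel (5655 ± 1758 FPKM), like xlr-1, and lowest in Δos-2 (10.8 ± 0.706 FPKM). The mean of xlr-1 was 41.4 FPKM in both Δos-2 and Δcre-1Δclr-3, whereas gh1-1 had 112.5 ± 13.15 FPKM in Δcre-1Δclr-3. NCU05863 and NCU11342 had their extremes elsewhere. NCU05863 was highest in Δos-2Δclr-3 (87.5 ± 7.74 FPKM), close to wild type on Avicel (86.1 ± 49.3 FPKM), and lowest in Δcre-1 (1.49 ± 0.134 FPKM). NCU11342 was highest in Δos-2Δclr-3 (42.0 ± 8.16 FPKM) and lowest in Pccg1-clr-2 (2.91 ± 0.284 FPKM). For vib-1 they were NCU09265, NCU10683 and NCU00669 (r = 0.870, 0.864 and 0.839), all highest in wild type on Avicel and lowest in Δos-2Δclr-3.

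For ara-1 they were NCU09224, the glycoside hydrolase family gene gh2-2 and NCU07169 (r = 0.928, 0.923 and 0.903). All 3 were highest in Pccg1-clr-2 and lowest in Δcre-1Δclr-3, like ara-1. For pdr-1 they were NCU01100, the kinase gene cot-1 and NCU06290 (r = 0.938, 0.937 and 0.937). Between the regulators themselves, r was 0.48 for xlr-1 and vib-1, 0.41 for xlr-1 and ara-1, 0.20 for vib-1 and ara-1 and 0.17 for ara-1 and pdr-1. It was -0.58 for xlr-1 and pdr-1 and -0.59 for vib-1 and pdr-1. In the order given, these values ranked 206, 289, 1025, 3767, 7792 and 7837. The rank counts from the highest r of the first gene of a pair with any of 8244 genes. All r values use FPKM without rescaling of the libraries.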

How the data were processed

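The authors deposited FPKM per gene for each library, with lower and upper bounds. HISAT2 2.0.5 and Cufflinks 2.2.1 are named in the submitters' processing notes, without a role. Annotation release and strandedness: not given in the sources used here. No counts were used; depth was implied from the bounds, assuming Poisson counting, and intervals cover these libraries only. A second deposited FPKM table of the whole series holds the same values times a constant per library (log2 factors -0.37 to 0.47) and served as an alternative scaling. Its replicate numbers match the per-library files in 11 columns and differ in 31, so its columns were used by group.

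Tests used log2(FPKM + 1) and limma 3.58.1 (linear model per gene, moderated with a trend, R 4.3.3), with Benjamini-Hochberg adjustment across all genes that averaged 1 FPKM or more in the fit and had an OK status in all 42 libraries (12 genes failed). To be called, a gene needed an adjusted p below 0.05 together with a log2 fold change of 1 or more in size. The 18 libraries of 4 h, the 24 of 10 h and the 12 of the time comparison were fitted apart, 1 term per group. Deleted or misexpressed genes were left out of the counts over all genes and over the lists in comparisons of their strain. They stayed in the fits and in the adjustment. Replicates are biological per the labels, and p-values measure the spread among these samples only. The limma fit was tested on simulated data for the comparison of Δos-2 with wild type at 10 h. The 4 genes and the lists were chosen with earlier results of these data known; lists were written from knowledge of the field, and at most the 3 called genes with the largest change are named per list and comparison. The names ara-1, pdr-1 and clr-3 are not in the RefSeq table used, and identifiers without a symbol there are given as such. Same-numbered libraries deviated together (every r above 0.1) in 4 pairs of groups: Δclr-1 with wild type and with Δclr-2 on Avicel, Δclr-2 on Avicel with starved wild type, and Δcre-1Δclr-3 with Δclr-3. Alternatives were another pseudocount (0.1), filters of none and 5 FPKM, both rescalings, a fit of only the groups compared, a replicate block, and leaving out libraries.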

Additional observations from a re-analysis of the deposited data

Results flagged for a closer look

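The effect of a deletion on xlr-1 differed between strains with and without clr-3 by a test of the difference itself. For Δos-1 the effect in Δclr-3 minus that in wild type was -1.23 on the log2 scale, and for Δcre-1 it was -1.60 (limma across all genes, adjusted p = 1.18e-07 and 2.3e-09). Each contrasts 12 libraries, within the fit of all 24 libraries at 10 h. The same difference for Δos-2 was -0.06, with a 95% interval from -0.30 to 0.18. Levels of xlr-1 were 62.4 FPKM in Δos-1Δclr-3 and 41.4 FPKM in Δcre-1Δclr-3, against 134 FPKM in Δclr-3.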

How the results depend on the processing

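Of 1428 values of the 100 results for single genes under alternatives, 1410 stayed on their side of the limits, 3 lost a call and 15 gained one. The sign differed from the reported one in 51 values of 23 results, of which 0 were called under either setting. The number of the 4 genes called was 2, in place of 1, in Δclr-2 against wild type on Avicel with median-ratio rescaling, with the scaling of the whole-series table and without the library least like its group at 4 h; leaving out 1 library at a time gave 1 to 2. In Δclr-3 against wild type at 4 h it was 1, in place of 0, under the same 3 settings, and 0 to 1 with 1 library left out. In Pccg1-clr-2 it was 2, in place of 1, without the least alike libraries. In Δos-1 against Δos-2 it was 0, in place of 1, with either rescaling. In the interaction of Δcre-1 and Δclr-3 it was 2, in place of 1, with the pseudocount 0.1, and 1 to 2 with 1 library left out; the added gene was ara-1. In Δclr-3 at 10 h against 4 h it was 0, in place of 1, with the scaling of the whole-series table. The cause was not tested. The replicate block changed no call of the 4 genes; for xlr-1 in wild type on Avicel it gave 1.46 with adjusted p = 7.27e-06 (limma). The setting without the least alike libraries was chosen after seeing the data. At 4 h the standard errors of the log2 fold changes were 0.14 to 0.27, against 0.07 to 0.10 in the comparisons of 2 groups at 10 h, so small differences were harder to detect at 4 h.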
